A study of Drosophila melanogaster with 84 samples.

Results

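The central clock transcription factor of Drosophila is a pair of proteins, CLOCK and CYCLE, that switch on the genes period and timeless. The PERIOD and TIMELESS proteins later block that pair, so that period and timeless RNA rises and falls once a day. CLOCK and CYCLE also drive vri and Pdp1, whose products act on Clk itself, and cwo, whose product competes at the same target sites. The allele Clk-Jrk encodes a CLOCK protein that lacks most of its activation domain and acts in a dominant negative way. The comparison described here asks what the loss of CLOCK activity did to the average RNA level of each gene in the abdominal fat body, the fly organ that stores fat and glycogen, secretes yolk and blood proteins and detoxifies, and to the daily rhythm of those genes.

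The samples were the 12 Clk-Jrk libraries of the series and the 12 wild-type libraries taken at the same hours, on the same diet and at the same temperature, which makes 24 of 84 libraries. Wild-type flies were w1118, and the mutant line had been backcrossed 7 times to w1118, so both carry the white mutation. All were mated females, per the labels about 3 days old at the start and kept for 5 days at 25°C under 12 hours of light and 12 hours of dark on the diet the titles call High Calorie, taken here to be the control diet of 15% sucrose and yeast. The study's methods add further days of entrainment before those 5 days, so age at dissection is not certain. Both groups were sampled at ZT2, ZT6, ZT10, ZT14, ZT18 and ZT22 (ZT counts hours from lights on), with 2 replicates a time point, and each library pooled the fat tissue of 10 flies left on the abdominal wall after the other organs were cut out. The labels describe 2 incubators with inverted light cycles, which allowed dissection by day only, and whether both genotypes shared them is not given. The other libraries of the series, all wild type, came from the remaining hours at 25°C, from 18°C and from a 5% diet. Only 1 mutant line was compared, so what the allele did and what other differences between the lines did cannot be told apart.

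The deposited values are TPM, transcript abundance relative to the total of a library, which keep no read counts, so depth is unknown and every error below is a spread between libraries. Of 23932 features, 7093 had a median above 5 TPM in at least one group and were tested, 6352 of them through both groups, 85 through the mutant alone and 656 through wild type alone. A gene that passed through 1 group alone had to be high in it, so the filter helped to set its direction. Of the genes below, those that passed through the mutant alone include CG3348, CG18417, Sardh, Ugt302C1, CG10814, FBti0019898 and lncRNA:CR45115. Those that passed through wild type alone include tim, vri, EcR, CG33926, mt:ND6, CG13704, lncRNA:CR44566, asRNA:CR45822, Hsp70Bb, CG13313 and slow. Libraries differed in composition. The 20 most abundant features took between 29.0% and 37.6% of all TPM in the mutant and between 24.3% and 32.9% in wild type. As a sum, 12 fat body markers were abundant in both, at 49767 TPM or more in every library. The median sum was 127954 TPM in the mutant and 86024 TPM in wild type, with 6 markers called higher and 1 lower (7 and none after scaling). Most of it was RNA of the 3 yolk protein genes, with medians of 120139 TPM and 82291 TPM. The sum says little of the other markers, of which Lsp2 and Gnmt were as low as 2.18 and 4.59 TPM in wild type. Yp1, Yp2, Lsp2 and Gnmt are also described below as results. Digestive enzymes that mark the midgut summed to more than 1000 TPM in 5 wild-type libraries, reaching 13120 TPM, and in 1 mutant library, at 1169 TPM. The 18 tested muscle markers summed to a median of 2305 TPM in the mutant and 3531 TPM in wild type, and 15 of them were called lower (7 after scaling and 7 without replicate 1). Of all genes tested, 36.3% were called lower, and 20.2% after scaling. Median correlation with the other libraries was lowest for wild-type replicate 1 at ZT2 and ZT18 (0.906 for both), while mutant libraries ranged from 0.938 to 0.967.

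Of the clock genes that CLOCK and CYCLE switch on, tim, vri and Pdp1 fell by between 1.63 and 3.39 on the log2 scale, and cwo and per were lower by less. timeless (tim, on 2L at 3493986 to 3508119 of the BDGP6 assembly) had 1.57, 3.47 and 5.70 TPM as the lowest, median and highest mutant library, against 9.70, 73.5 and 126 TPM in wild type. The groups did not overlap, and the highest mutant value also lay under every one of the 72 wild-type libraries of the series, whose lowest was 9.56 TPM. On the log2(TPM + 1) scale used for all tests, tim was lower by 3.39 (SE 0.28, limma adjusted p = 1.98e-08, n = 12 and 12). vri, which encodes a repressor of Clk, had 1.66, 3.46 and 5.71 TPM in the mutant and 8.41, 24.1 and 60.7 TPM in wild type. That is a log2 difference of -2.54 (SE 0.22, limma adjusted p = 5.95e-08), again with no overlap.

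Pdp1, which encodes an activator of Clk, ranged from 4.39 to 23.0 TPM in the mutant and from 17.4 to 61.4 TPM in wild type. A single mutant library, replicate 1 at ZT14, reached into the wild-type range, and the log2 difference was -1.63 (SE 0.20, limma adjusted p = 6.32e-06). The repressor gene cwo ranged from 4.62 to 15.4 TPM against 13.8 to 19.6 TPM, and the mutant library that overlapped was the same one. Its log2 difference was -0.85 (SE 0.11, limma adjusted p = 1.72e-05).

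The gene cry, which encodes the blue-light photoreceptor cryptochrome, moved the other way. It had 145, 158 and 199 TPM as the lowest, median and highest mutant library and 51.1, 87.8 and 144 TPM in wild type, so every mutant library lay above every wild-type one. Its log2 difference was 0.86 (SE 0.11, limma adjusted p = 1.18e-05). cyc, the gene of CLOCK's partner, had medians of 30.5 and 31.3 TPM, and its difference was not called (log2 -0.14, SE 0.09, limma adjusted p = 0.198).

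Clk and per were under the filter and were tested alone by a two-sided permutation test with 100000 resamples. Clk ranged from 1.56 to 6.88 TPM in the mutant and from 2.48 to 8.31 TPM in wild type, with a log2 difference of -0.17 (permutation p = 0.356). per had medians of 1.96 TPM in the mutant and 3.81 TPM in wild type, with a log2 difference of -0.58 (permutation p = 0.00158).

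**Figure D1:**
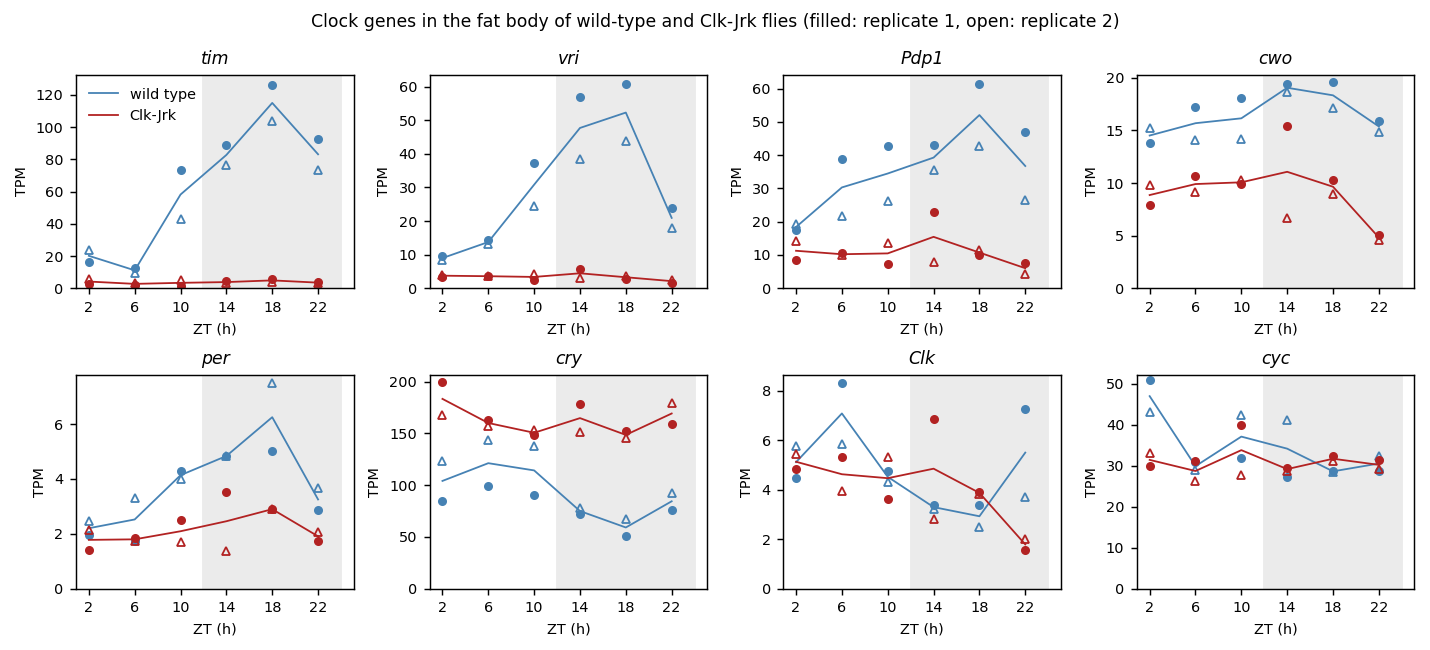
RNA level in TPM (y axes, from 0) of 8 clock genes against ZT in hours, wild type in blue and Clk-Jrk in red; filled circles are replicate 1, open triangles replicate 2, lines join the means of both, and the dark phase is shaded. Wild-type tim climbs from about 10 TPM at ZT6 to over 100 TPM at ZT18 while all mutant values stay at or under 5.70 TPM, and cry is the panel in which the mutant lies above.

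Daily rhythms of these genes were tested within each genotype. A cosine and sine of a 24 hour period were fitted to TPM in each group of 12 libraries, with an F-test. Wild-type tim had an amplitude of 50.4 TPM (SE 5.89, peak at ZT 17.2, p = 4.74e-05), and mutant tim 0.698 TPM (SE 0.562, p = 0.491). For vri the amplitudes were 22.6 TPM (SE 3.19, peak at ZT 15.4, p = 0.000213) and 0.598 TPM (SE 0.412, p = 0.388). per had 1.84 TPM (SE 0.379, p = 0.00305) in wild type and 0.514 TPM (SE 0.250, p = 0.176) in the mutant. Amplitudes were not divided by the mean level, which for per was 3.865 TPM in wild type and 2.15 TPM in the mutant.

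cry, Clk and cwo also had a harmonic p under 0.05 in wild type. cry had an amplitude of 30.6 TPM in wild type (SE 7.92, peak at ZT 6.03, p = 0.0123) and 11.4 TPM in the mutant (SE 6.14, p = 0.232). Clk had 1.73 TPM (SE 0.545, peak at ZT 4.14, p = 0.0343) and 1.02 TPM (SE 0.602, p = 0.289). Pdp1 had 12.3 TPM (SE 4.33, p = 0.0554) and 2.50 TPM (SE 1.98, p = 0.482), and cyc passed in neither (p = 0.481 and 0.970). For cwo the amplitudes were 2.15 TPM (SE 0.627, p = 0.0231) and 2.23 TPM (SE 1.06, p = 0.164), at mean levels of 16.5 and 9.06 TPM. Whether a daily profile differed between genotypes was tested on the log2 scale by the interaction of genotype with the cosine and sine. Among these clock genes vri passed (limma adjusted p = 0.0333), tim did not (0.0996) although its unadjusted p was 0.000208, and Pdp1, cwo, cry and cyc were between 0.320 and 0.681.

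Over all genes tested, 3273 of 7093 (46.1%) differed in mean level at a limma adjusted p under 0.05, and 2573 of them (36.3% of the genes tested) were lower in the mutant against 700 (9.87%) higher. This split depends on how libraries are put on one scale. The median gene had a log2 difference of -0.22 in TPM, and after each library was scaled by the median of its ratios to the average library, the median gene was at -0.03. Then 1451 genes (20.5%) were called higher and 1436 (20.2%) lower, and 2136 genes were called in the same direction both ways. Scaled counts are given below beside those in TPM for the gene groups they move. The count of called genes was 712 when replicate 2 was left out and 2743 when replicate 1 was, and 2039 without the libraries with much midgut RNA. At least a 2-fold difference was found for 439 called genes, 100 of them higher and 339 lower.

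The difference moved with transcript length. When genes were cut into 5 classes of equal size by exon length, the median of the longest class (3.65 kb and more) was a log2 difference of -0.45. In it 906 of 1413 genes were called lower and 45 higher. In the shortest class the median was -0.12, with 332 of 1418 lower and 156 higher. The scaled medians were -0.27 and 0.07. The part of transcript length in the results below was not tested. Median exon length was 6.07 kb for the 4 core clock genes called lower, and it is given below for the groups other than cell type markers with 10 or more genes called lower in which it was within the longest class.

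A stricter view takes the genes whose 12 mutant values did not overlap the 12 wild-type values, which was so for 152 genes (2.14%), 103 higher and 49 lower, all of them called. Of these, 47 also lay outside the range of all 72 wild-type libraries, across both temperatures and both diets, 31 above and 16 below. The 12 largest rises and 12 largest falls among the 152 kept their direction and their call in every alternative in which they were tested, each replicate series and each single library left out included. They had been chosen as fully separated in these same libraries, so this outcome was nearly set by the choice and is not independent support.

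Among the genes without overlap, the largest rise was that of CG3348, which was listed at 0 in 9 wild-type libraries, reached 5.49 TPM in the wild-type library of replicate 1 at ZT10 and ranged from 40.1 to 133 TPM in the mutant (log2 difference 6.03, SE 0.24, limma adjusted p = 1.85e-13). Its exons overlap those of Hmu, and the authors counted without regard to strand. CG18417 followed, with at most 2.29 TPM in wild type and at least 45.2 TPM in the mutant (log2 5.27, SE 0.22). Next came Gnmt, glycine N-methyltransferase, which uses up S-adenosylmethionine to make sarcosine. It had 940, 1583 and 2647 TPM as the lowest, median and highest mutant library and 4.59, 40.0 and 763 TPM in wild type (log2 4.59, SE 0.69, limma adjusted p = 5.32e-05).

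Wild-type Gnmt differed between the replicate series. Replicate 1 ranged from 4.59 to 49.2 TPM and replicate 2 from 12.6 to 763 TPM, and the mutant lay above both. Its exons overlap those of CG43630, so reads of these genes cannot be told apart. Sardh, sarcosine dehydrogenase, the enzyme that takes sarcosine back to glycine, rose as well, from between 0.20 and 2.52 TPM to between 7.16 and 19.8 TPM (log2 2.82, SE 0.21, limma adjusted p = 4.09e-09). It passed the filter only through the mutant, where it was high, so a fall from these wild-type levels could not have been tested. Of the other 6 tested genes of the methionine cycle list, AhcyL1 was lower (log2 -0.47, SE 0.15, limma adjusted p = 0.0131) and 5 were not called, among them Sam-S and Ahcy, whose enzymes make S-adenosylmethionine and break down its product.

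Cytochrome P450 genes, whose enzymes oxidise steroids, fatty acids and foreign compounds, were among the listed families with the most rises. Of 52 tested, 31 were called higher and 4 lower, and 39 and 3 after scaling, against 9.87% and 36.3% over all genes. Their median log2 difference was 0.39, and -0.22 over all genes. Cyp6a8 had 1048, 1364 and 2199 TPM as lowest, median and highest in the mutant and 36.4, 161 and 329 TPM in wild type (log2 3.53, SE 0.29, limma adjusted p = 2.04e-08).

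Cyp6w1 rose from a wild-type range of 96.3 to 838 TPM to between 1821 and 4082 TPM (log2 2.98, SE 0.28). Cyp12d1-p rose by 2.97 (SE 0.24), from at most 87.8 TPM to at least 198 TPM, but has a near-identical neighbour, Cyp12d1-d, between which reads can be split. Cyp6g1, known for its role in insecticide resistance, ranged from 808 to 1347 TPM in the mutant and from 270 to 552 TPM in wild type (log2 1.37, SE 0.11). These 4 genes lay above all 72 wild-type libraries, as did Cyp6a21, Cyp6d5, Cyp9h1 and Cyp309a2. In all, 13 P450 genes showed no overlap between the groups, against 2.14% of all genes tested. Without replicate 2, 13 were called higher and 1 lower, against 222 and 490 of all 7093 genes. The 4 called lower were Cyp6a18, Cyp18a1, Cyp12b2 and Cyp6v1, of which Cyp6v1 was no longer called after scaling. Cyp18a1, whose enzyme inactivates the moulting hormone, was at a log2 difference of -0.73 (SE 0.14).

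Other enzymes join what P450s oxidise to sugars or glutathione. Of 14 UDP-glycosyltransferases 5 were higher and 1 lower (6 and 1 after scaling). Ugt302C1 stood out, with 25.1 to 43.4 TPM in the mutant and 2.18 to 4.39 TPM in wild type (log2 3.01, SE 0.10, limma adjusted p = 3.69e-15), and the one lower was Ugt35B1 (log2 -1.48, SE 0.30). Among 23 glutathione S-transferases 8 were higher and 3 lower, and 13 and 2 after scaling. For all genes the shares were 9.87% higher and 36.3% lower, and 20.5% and 20.2% after scaling. GstE3 (log2 1.58, SE 0.15), GstE7 (1.43, SE 0.18) and GstZ2 (1.15, SE 0.15) rose most. GstE10 fell (log2 -1.38, SE 0.25). Without replicate 2, 3 UDP-glycosyltransferases and 3 glutathione S-transferases were called higher and 1 of each lower, against 222 and 490 of all 7093 genes.

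**Figure D2:**
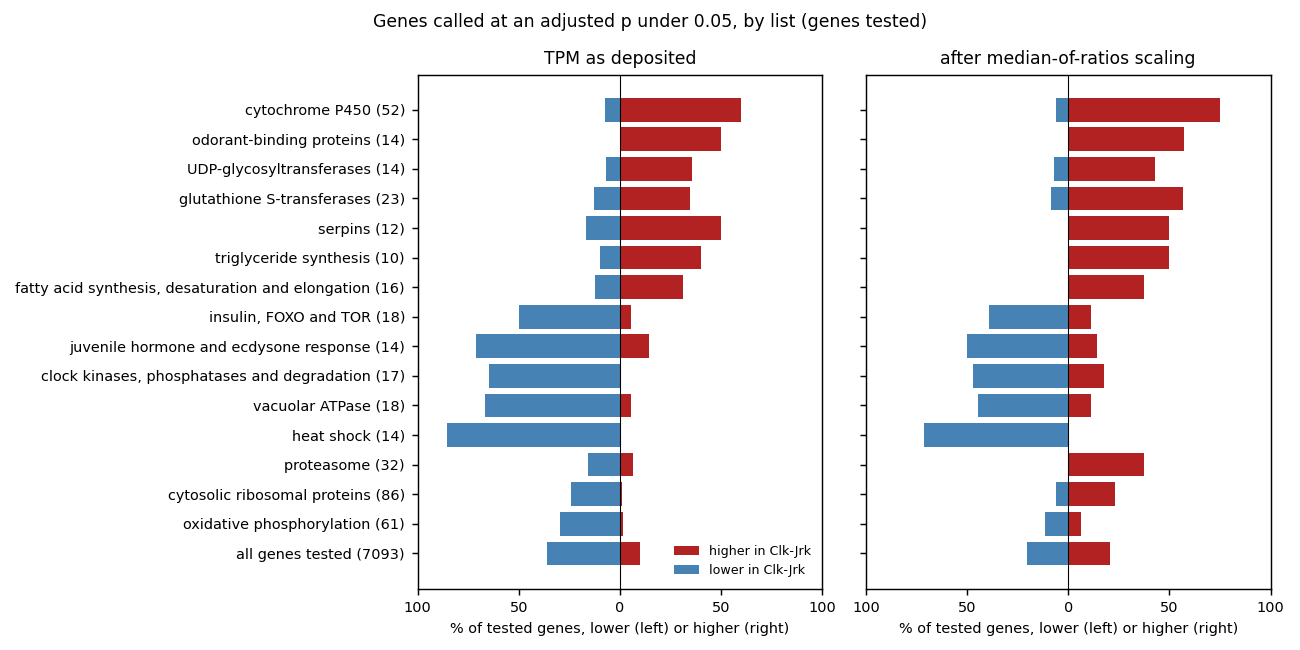
Share of the tested genes of 15 lists, and of all genes, called higher (red, to the right) or lower (blue, to the left) in Clk-Jrk at a limma adjusted p under 0.05; the number of genes tested is in brackets, the left panel uses TPM as deposited and the right panel TPM scaled by the median of ratios. P450 genes lie to the right and heat shock genes to the left in both panels, while proteasome and ribosomal protein genes change sides.

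The hexamerin genes Lsp2 and Lsp1beta encode amino acid stores that the larval fat body secretes, and both tested members of the 6 listed rose. Lsp2 had 243, 627 and 1935 TPM as the lowest, median and highest mutant library and 2.18, 48.6 and 289 TPM in wild type, which overlap (log2 4.69, SE 0.75, limma adjusted p = 8.83e-05). Lsp1beta ranged from 23.4 to 504 TPM against 1.91 to 38.3 TPM (log2 3.01, SE 0.57, limma adjusted p = 0.000429).

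In both genotypes the highest hexamerin levels were those of replicate 2. Lsp2 reached at most 662 TPM in replicate 1 and 1935 TPM in replicate 2 of the mutant, and at most 66.4 and 289 TPM in the replicates of wild type. The yolk protein genes Yp1 and Yp2, among the most abundant fat body RNAs, were also higher. The highest of 12 libraries was 69803 TPM in the mutant and 54211 TPM in wild type for Yp1 (log2 0.72, SE 0.18, limma adjusted p = 0.00366). Yp2 differed by a log2 of 0.52 (SE 0.20, limma adjusted p = 0.0385). Both calls were lost without replicate 1, and also without the libraries with much midgut RNA. Odorant-binding protein genes, several of which encode abundant secreted fat body proteins, were higher in 7 of 14 and lower in none, with Obp99c at a log2 difference of 0.77 (SE 0.10). Among all genes 9.87% were higher and 36.3% lower. Without replicate 2, 2 of the 14 were called higher and none lower, against 222 and 490 of all 7093 genes.

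Juvenile hormone and ecdysone genes moved in both directions. Jheh1 and Jheh2, 2 of the 3 epoxide hydrolase genes whose enzymes break down juvenile hormone, rose. Jheh1 had 391, 589 and 1104 TPM as lowest, median and highest mutant library against 42.6, 126 and 255 TPM (log2 2.44, SE 0.23, limma adjusted p = 1.28e-07), and Jheh2 had 424, 512 and 720 TPM against 161, 195 and 284 TPM (log2 1.36, SE 0.09, limma adjusted p = 5.90e-10). Both were above all 72 wild-type libraries. Jheh3, the neighbouring member, was lower (log2 -0.65, limma adjusted p = 0.0223), which was not called after scaling.

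Most called genes of the list were lower. EcR, the ecdysone receptor, ranged from 0.83 to 5.51 TPM in the mutant and from 5.20 to 8.07 TPM in wild type (log2 -1.20, SE 0.14, limma adjusted p = 4.16e-06), and Eip75B, an ecdysone-induced nuclear receptor, was at -1.16 (SE 0.16). In total 10 of the 14 genes tested were lower and 2 higher, and 7 and 2 after scaling. The shares over all genes were 36.3% and 9.87%, and 20.2% and 20.5% after scaling. The 10 lower genes had a median exon length of 5.70 kb, within the longest of the 5 classes of genes. Without replicate 2, 2 of them were called lower.

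The insulin and growth genes were led by Ilp6, the insulin-like peptide that the fat body itself secretes. Ilp6 had 2.76, 5.71 and 6.96 TPM as the lowest, median and highest mutant library and 12.5, 25.9 and 47.9 TPM in wild type. All mutant libraries lay below all 72 wild-type libraries (log2 -2.02, SE 0.15, limma adjusted p = 5.67e-09). REPTOR, a transcription factor held back by TOR signalling, was at a log2 difference of -1.12 (SE 0.16), foxo, which insulin signalling holds back, at -0.90 (SE 0.15) and the adaptor gene Lnk at -0.51 (SE 0.09). Of 18 genes of this list 9 were lower and 1, Sesn, higher (7 and 2 after scaling), against 36.3% and 9.87% of all genes (20.2% and 20.5% after scaling). Without replicate 2, 4 were lower and none higher, against 490 and 222 of all 7093 genes. InR was not among those tested, and Tor and Thor were not called (both log2 -0.03).

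Heat shock genes encode chaperones that refold or hold damaged proteins. Of 14 tested, 12 were called lower and none higher, and 10 lower after scaling, against 36.3% of all genes lower (20.2% after scaling). Hsp70Ab had 1.28, 5.22 and 35.0 TPM as the lowest, median and highest mutant library and 40.7, 89.0 and 258 TPM in wild type (log2 -3.83, SE 0.33, limma adjusted p = 5.48e-08). The Hsp70 genes are near-identical copies, between which reads can be split. The small heat shock genes Hsp26, Hsp27, Hsp22 and Hsp23 fell by between 1.79 and 2.04 on the log2 scale, and the cofactor gene stv by 1.02. Without replicate 2, 6 of the 14 were called lower, against 490 of all 7093 genes. Hsp60A and Hsf, the gene of the heat shock transcription factor, were not called. Wild-type libraries from other conditions varied as well, since Hsp70Ab ran from 0 to 737 TPM over the 72 libraries.

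Among genes of fat storage and sugar use, Dgat2, whose enzyme catalyses the last step of triglyceride synthesis, rose from a wild-type median of 18.5 TPM to 59.8 TPM (log2 1.92, SE 0.30, limma adjusted p = 6.79e-05), and 4 of 10 genes of triglyceride synthesis were higher and 1, Gpo1, lower (5 and none after scaling). Of the fatty acid synthesis genes 5 of 16 were higher, including ATPCL (log2 0.56, SE 0.10), AcCoAS (0.44, SE 0.10) and SREBP (0.30, SE 0.08), and 2 were lower, which were not called after scaling. The lipid droplet gene Lsd-2 was lower (log2 -0.55, SE 0.12), as were 5 of 10 lipolysis and droplet genes in all, but after scaling 2 were higher and 1 lower. Across all genes 9.87% were higher and 36.3% lower, and 20.5% and 20.2% after scaling. Without replicate 2, 1 triglyceride synthesis gene and 2 fatty acid synthesis genes were called higher and none lower. No lipolysis or droplet gene was then called, and over all 7093 genes 222 were higher and 490 lower.

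The alpha-glucosidase gene tobi, which responds to dietary protein and insulin, rose from 135, 339 and 806 TPM (lowest, median and highest wild-type library) to 711, 1344 and 1886 TPM in the mutant (log2 1.89, SE 0.25, limma adjusted p = 1.35e-05). Glycogen phosphorylase, GlyP, had medians of 228 TPM in the mutant and 487 TPM in wild type (log2 -0.90, SE 0.17, limma adjusted p = 0.000344). The sugar-responsive repressor genes cbt (log2 -0.86, SE 0.12) and sug (-0.57, SE 0.12) were lower.

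Among immune genes, 2 that take part in sensing and killing bacteria and fungi rose without overlap. Drsl4, of the drosomycin family of antifungal peptides, had 1520, 1802 and 2062 TPM as lowest, median and highest mutant library and 419, 540 and 743 TPM in wild type (log2 1.75, SE 0.08, limma adjusted p = 2.22e-12). It reached 2431 TPM elsewhere among the 72 wild-type libraries. PGRP-LC, the receptor that starts the Imd pathway, ranged from 52.5 to 99.6 TPM against 15.6 to 40.9 TPM (log2 1.48, SE 0.18, limma adjusted p = 4.64e-06), and its wild-type values were higher in replicate 1 than in replicate 2 at every hour. PGRP-SD was lower (log2 -1.30, SE 0.16). The induced peptide genes Dro and Listericin were lower in the mutant (log2 -2.0, SE 0.78, and -1.75, SE 0.51) with wild-type values spread from 1.44 to 652 TPM and from 2.20 to 229 TPM, and Dro was not called after scaling and changed sign when replicate 1 was left out. The other 8 tested antimicrobial peptide genes were not called.

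Kinases, phosphatases and ubiquitin ligases that act on clock proteins were lower in 11 of 17 genes and higher in none, but after scaling in 8 and 3. Of all genes 36.3% were lower and 9.87% higher, and 20.2% and 20.5% after scaling. The same shares apply to the pump genes below. The 11 lower genes included sgg (log2 -0.87, SE 0.16), the PER kinase gene dco (-0.74, SE 0.16) and the phosphatase subunit genes mts, wdb and tws (from -0.63 to -0.93). Their median exon length was 5.06 kb, and none was called without replicate 2. Vacuolar ATPase subunit genes were lower in 12 of 18 and higher in 1 (8 and 2 after scaling). The Malpighian tubule, an organ rich in this pump, had its 6 tested markers lower as well (5 after scaling), with summed marker levels of 31.0 to 170 TPM in the mutant and 114 to 322 TPM in wild type. The part of tubule RNA in the pump genes was not tested.

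For the large housekeeping complexes the sign depended on the scale. Cytosolic ribosomal protein genes were called lower in 21 of 86 and higher in 1 in TPM, and lower in 5 and higher in 20 after scaling. Proteasome genes went from 5 lower and 2 higher to 12 higher and none lower, and mitochondrial ribosomal protein genes from 13 lower and none higher to 4 lower and 15 higher. No direction is given for them. Oxidative phosphorylation genes of the nucleus were lower in 18 of 61 and higher in 1, and in 7 and 4 after scaling. The shares over all genes were 36.3% lower and 9.87% higher, and 20.2% and 20.5% after scaling. Their median log2 difference was -0.14, against -0.22 over all genes, and 0.06 after scaling, so no direction is given for oxidative phosphorylation either.

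The falls were led by genes of no listed family. CG33926 was at most 1.20 TPM in the mutant and at least 74.8 TPM in wild type (log2 -6.75, SE 0.18, limma adjusted p = 3.49e-16). Next was mt:ND6, a subunit gene of respiratory complex I that lies in the mitochondrial genome, with 0.20, 2.66 and 6.90 TPM as lowest, median and highest mutant library and 65.6, 165 and 392 TPM in wild type (log2 -5.50, SE 0.38, limma adjusted p = 1.72e-09). A neighbour in that genome, mt:ND4L, was at -3.70 (SE 0.74), and its exon overlaps that of mt:ND4. The set of mitochondrial genome genes was looked at after these values were seen. Of its 27 tested genes 12 were lower and none higher, against 36.3% and 9.87% of all genes. Without replicate 1, 4 were lower, and without replicate 2, 25. Of the 12, 8 were short tRNA genes. The cytochrome oxidase subunit genes mt:CoI, mt:CoII and mt:CoIII were at -0.28, -0.23 and -0.30 and not called.

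The other falls of the 12 not yet described were CG13704 (log2 -4.58, SE 0.22), lncRNA:CR44566 (-3.90, SE 0.11), the antisense RNA gene asRNA:CR45822 (-3.49, SE 0.12), Hsp70Bb (-2.73, SE 0.28), CG13313 (-2.48, SE 0.21) and slow (-2.47, SE 0.15). lncRNA:CR44566 was at most 0.26 TPM in the mutant and at least 12.4 TPM in wild type. The rises not yet described were CG8539 (2.97, SE 0.14), CG9360 (2.86, SE 0.21), CG10814 (2.64, SE 0.20) and FBti0019898, a transposable element insertion on 2R (2.63, SE 0.23).

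The counts in this paragraph stand beside 9.87% higher and 36.3% lower over all genes, and 20.5% and 20.2% after scaling. Genes listed as clock outputs in head or fat body were higher in 7 and lower in 3 of 12 (7 and 2 after scaling), and without replicate 1 in 7 and none. The higher ones were Cyp6a8, Cyp6a2, Cyp6a21, Cyp6g1, CG17560, CG17562 and GLaz, a lipocalin gene, and the lower ones CG10513 (log2 -2.59, SE 0.49), Ugt35B1 and Usp1. Serpins, inhibitors of serine proteases, were higher in 6 of 12 and lower in 2, and the 2 lower were not called after scaling. Fatty acid oxidation genes were higher in 5 and lower in 4 of 14, with Acox57D-p, a peroxisomal acyl-CoA oxidase gene, at a log2 difference of 0.63 (SE 0.08), and lower in none after scaling. Glycolysis genes were higher in 3 and lower in 3 of 17 (5 and 0 after scaling), and autophagy genes higher in 1 and lower in 4 of 19 (2 and 0 after scaling). Unfolded protein response genes were higher in 4 and lower in 2 of 18 (10 and 1 after scaling), and none of 4 tested Turandot stress genes was called. Secreted signals of the fat body were higher in 4 and lower in 2 of 12 (5 and 1 after scaling), the higher ones including CCHa2, a nutrient-responsive peptide hormone gene (log2 0.70, SE 0.14), and Obp99b (1.78, SE 0.34). Antioxidant genes were higher in 4 and lower in 5 of 15 (6 and 3 after scaling), and iron genes higher in 2 and lower in 2 of 8 (4 and none after scaling). Bomanin peptide genes were higher in 2 and lower in 3 of 12 (3 and none after scaling), and peptidoglycan recognition genes, PGRP-LC and PGRP-SD included, higher in 1 and lower in 2 of 8 (2 and 1 after scaling). Lipid transport genes were higher in 3 and lower in 1 of 11 (4 and none after scaling), and pentose phosphate genes higher in 2 and lower in none of 6 (3 and none after scaling). Glycogen and trehalose genes were higher in 2 and lower in 2 of 11 (5 and 1 after scaling). Ovary markers were lower in 2 of 23 (1 after scaling) and higher in none, with sums of 120 to 3111 TPM in the mutant and 330 to 10643 TPM in wild type. Markers of blood cells were higher in 4 of 11 and lower in none, with 3 lower without replicate 1, without the libraries with much midgut RNA or with a replicate block. Oenocyte markers were higher in 1 and lower in 1 of 9 (1 and none after scaling). Neuron markers summed to at most 23.6 TPM in any of the 24 libraries.

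Clk lies on 3L at 7763233 to 7775603, and the chromosome around a selected allele can stay that of the original line through backcrossing. Within 1 Mb on either side, 9 of 133 tested genes (6.77%) showed no overlap between groups. The share was 2.67% of 449 genes from 1 to 5 Mb away, 2.14% of 746 genes farther away on 3L and 1.97% of 5699 genes on the other arms. Called genes were 64 of the 133 (48.1%), near the 46.1% of all genes. Genes called with at least a 2-fold difference were 9.02% within 1 Mb and 9.13% from 1 to 5 Mb away. Farther away on 3L they were 4.96%, and on the other arms 5.83%.

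The 9 genes included CG18417 and CG8539, described above, and pst (pastrel), a gene that limits infection by picorna-like viruses, 403 kb from Clk. pst ranged from 134 to 188 TPM in the mutant and from 364 to 612 TPM in wild type (log2 -1.62, SE 0.08, limma adjusted p = 9.64e-12), and asRNA:CR45822 lies beside it. Hn, which encodes phenylalanine hydroxylase and ends 0.067 kb from Clk, ranged from 475 to 778 TPM against 221 to 452 TPM (log2 0.75, SE 0.12, limma adjusted p = 7.30e-05). The others were CG8209, CG6638, CG8012 and lncRNA:CR45115. CG18417 and lncRNA:CR45115 passed the filter through the mutant alone and asRNA:CR45822 through wild type alone, so the filter helped to set their direction. Pdp1, at 35.9 kb, lies in the same window, and so does PGRP-SD. Of the largest falls, CG33926, CG13313, CG13704 and slow lie from 1 to 5 Mb away. The small heat shock genes Hsp22, Hsp23, Hsp26 and Hsp27, the immune genes PGRP-LC and Drsl4, and AhcyL1 lie there as well, among others. For these and the other genes of these stretches, the effect of the allele and that of a linked stretch of chromosome cannot be told apart.

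**Figure D3:**
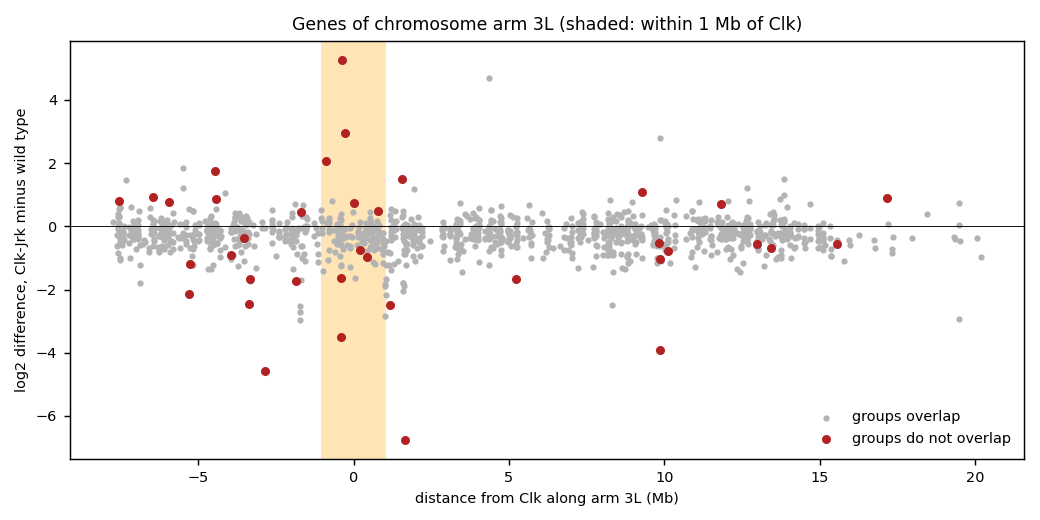
Log2 difference in mean level, Clk-Jrk minus wild type, of the 1328 tested genes on chromosome arm 3L (y axis) against distance from Clk in Mb (x axis, 0 at Clk); red points are the genes whose 12 mutant and 12 wild-type values did not overlap, and the shaded band is 1 Mb on either side. In the band 9 of 133 genes are red, and the lowest point on the arm, CG33926, lies 1.67 Mb from Clk.

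A difference in daily profile between genotypes was found for 4 genes (0.0564% of 7093) at a limma adjusted p under 0.05, and 649 genes had an unadjusted p under 0.05. Beside vri they were CG17560 and CG17562, neighbours on 3R annotated as fatty acyl-CoA reductases, and mir-2494, a microRNA gene inside an exon of CG17560, whose reads cannot be told apart from those of its host. Wild-type CG17560 was highest at ZT6, at 1651 and 1359 TPM, and lowest at ZT14, at 318 and 268 TPM. In the mutant every library lay between 1501 and 2391 TPM, so the mutant was above wild type at all hours, and its lowest value lay below only 1 wild-type library.

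CG17560 had an amplitude of 523 TPM in wild type (SE 85.6, peak at ZT 4.89, p = 0.000621) and 306 TPM in the mutant (SE 84.3, peak at ZT 5.56, p = 0.0172). CG17562 had 89.2 TPM (SE 18.8, p = 0.00353) and 26.4 TPM (SE 11.1, p = 0.111). In mean level CG17560 was higher by 1.62 (SE 0.17) and CG17562 by 0.98 (SE 0.17) on the log2 scale. CG14615, next in order, missed the threshold (limma adjusted p = 0.0533). After scaling, mir-2494 alone passed, and with either replicate series left out or without the libraries with much midgut RNA none did.

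**Figure D4:**
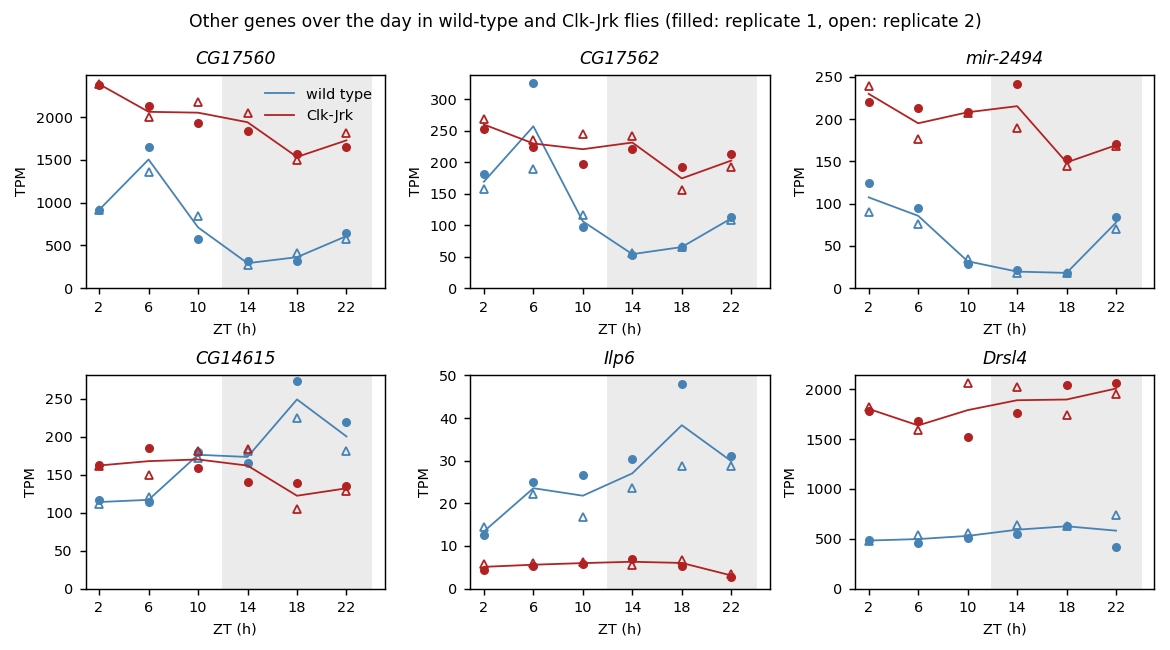
RNA level in TPM (y axes, from 0) against ZT in hours for CG17560, CG17562, mir-2494, CG14615, Ilp6 and Drsl4, wild type in blue and Clk-Jrk in red, with replicate 1 as filled circles, replicate 2 as open triangles, lines through the means and the dark phase shaded. The wild-type curves of the first 3 genes dip at ZT14 and ZT18 while the mutant stays high, and Ilp6 and Drsl4 are separated at all 6 hours.

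Counts of rhythmic genes gave no simple contrast. At the study's threshold of p under 0.1 in harmonic regression, 463 genes (6.53%) passed in wild type and 1203 (17.0%) in the mutant, where uniform p-values would give 709.3. A total of 136 genes passed in both, 29.4% of the wild-type and 11.3% of the mutant genes. Without replicate 1 the counts were 429 and 476, and without replicate 2 they were 489 and 1415, so the mutant count was above that of uniform p-values only where replicate 1 was included. At p under 0.01 there were 60 and 146 genes.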

How the data were processed

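The authors trimmed single-end reads of polyadenylated RNA, aligned them to BDGP6 with STAR 2.7.10a and quantified them with RSEM 1.3.1 without regard to strand. TPM values as deposited by the authors were read from 1 table of all libraries, with 0 value columns left unmapped to a sample. Reads per library are not in this unit, so no counting error could be given. Whether replicates came from separate cultures is not given, so p-values measure the spread between these libraries.

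Genes with a median TPM above 5 in either group were kept. log2(TPM + 1) was fitted with limma 3.58.1 (R 4.3.3; empirical Bayes with a trend) on genotype and time point, or on genotype with the cosine and sine of 24 hours and their interaction, with Benjamini-Hochberg adjustment over all genes kept and a threshold of 0.05. Fold changes are on that scale, which understates those of low genes. Permutation tests used scipy 1.17.1. The scripts were tested on simulated data.

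Members and gene lists were chosen with earlier results of these data known. Named genes are all core clock genes, the 12 largest rises and falls among called genes without overlap, the 5 smallest interaction p-values, up to 4 members of each list with the smallest adjusted p, and called genes within 1 Mb of Clk. Other members are named after their values were seen. Of the listed symbols, 19 did not match a gene. Positions come from Ensembl release 115 of BDGP6, later than the authors' annotation. Time points follow the sample titles. Alternatives covered pseudocount, scaling, filters, covariates, control libraries, replicate block and libraries left out, the latter partly chosen after seeing the data.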

Additional observations from a re-analysis of the deposited data

Results flagged for a closer look

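For 4 genes the difference between Clk-Jrk and wild type itself differed over the day, by the limma interaction of genotype with time. They were mir-2494 (adjusted p = 0.000535), vri (adjusted p = 0.0333), CG17562 (adjusted p = 0.0333) and CG17560 (adjusted p = 0.0333). The first and the last share exon sequence and are not separate observations. Over the alternatives that leave out a whole replicate series the adjusted p of mir-2494 was 0.408 and 0.981, and with the replicate block it was 0.000585. Beyond median correlation and midgut markers, the groups of 12 libraries were not searched for outlying samples.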

How the results depend on the processing

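The 12 largest rises and 12 largest falls kept direction and call in all 981 refits made of them. Their choice for full separation in the same libraries made that outcome likely, so it does not measure how stable other genes are. Whether replicate numbers mark batches shared by the genotypes is not given in the labels. Over the 6 hours, deviations of same-numbered libraries correlated between -0.459 and 0.361, with a mean of -0.170. With a replicate block, 3336 genes differed in mean level (725 higher, 2611 lower), 4 in daily profile, and 655 wild-type and 1167 mutant genes were rhythmic, against 3273 (700 and 2573), 4, 463 and 1203 without it.

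For mean level, scaling by the median of ratios gave 1451 higher and 1436 lower. Wild type of the other 6 time points as controls gave 2176 called and 1453 lower. The light phase alone gave 1548 (449 higher, 1099 lower), the dark phase alone 1324 (329 and 995), and a 2-fold minimum 439 (100 and 339). Without the libraries rich in midgut markers, 2039 were called and 1513 were lower. Leaving out replicates or single libraries gave between 712 and 3773 called, between 222 and 734 higher and between 490 and 3061 lower, the lowest each time without replicate 2. Leaving out single libraries, the midgut-rich ones or the 2 of lowest correlation was chosen after seeing the data. The fewer samples of the phase and replicate subsets lower the counts by construction, but the cause of the difference between replicates was not tested.

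For daily profile the count was 1 after scaling, 1 with no filter on low values, 2 without a trend in limma, 15 with all 24 wild-type libraries, 10 with time as a factor, 1 without the 2 wild-type libraries of lowest correlation, 0 without the midgut-rich libraries (672 at an unadjusted p under 0.05) and between 0 and 8 with replicates or single libraries left out, 0 being limma's count without replicate 1 (288 unadjusted) and without replicate 2 (820 unadjusted). Rhythmic genes at p under 0.05 were 231 in wild type and 657 in the mutant, at p under 0.01 60 and 146, and with a replicate left out between 476 and 1415 in the mutant.

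The log2 difference of cyc was 0.062 after scaling, that of CG14615 0.076 after scaling and 0.32 in the light phase, and that of Dro 0.24 without replicate 1 and -4.24 without replicate 2. None of these 4 sign changes was in a gene called before and after. TPM keeps no depth, so what depth limits cannot be given.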
